A study of Equus caballus with 4 samples.

Results

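The insulin-like growth factor (IGF) axis was examined through 10 genes, which encode its ligands (*IGF1* and *IGF2*), their receptors (*IGF1R* and *IGF2R*) and 6 binding proteins (*IGFBP2* to *IGFBP7*). They were chosen by name from the 24922 gene or transcript names that had a probe on the array. Of the 10 genes, 5 stood in the files under these symbols and 4 with a hyphen in the symbol. The files call *IGFBP7* by its older name AGM (angiomodulin), and it was found through its RefSeq accession.

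HMB, a metabolite of leucine, was added for 24 h to differentiating equine satellite cells (ESC), the precursor cells of muscle fibres, and control cells were kept for the same time without it. The cells came from the *semitendinosus* muscle of colts in their first year, grew in medium with 2% horse serum while they differentiated, and were harvested on the 3rd day of differentiation in both groups. On each of 4 two-colour arrays (*n* 4, 1 slide, scanned at 1 time), RNA of HMB-treated cells carried Cy5 and RNA of control cells Cy3. The dyes were never exchanged between the groups, so an effect of HMB and a dye bias of a probe cannot be told apart. By the methods section, treated and control cells also grew on separate plates. A difference between the plates cannot be told apart from HMB either.

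The sample labels put the dose at 50 µg, with no volume, while the methods section has the same figure in µM. A description field of the labels names the treated cells as GO-treated under the same replicate numbers, and the titles, which say HMB, were followed. The labels call the arrays biological replicates. Muscle was taken from several colts, and which of them supplied each array is not given in the sources used here. Values are log2 ratios of HMB-treated over control cells with SD over the 4 arrays. Each was tested against 0, two-sided, with limma, and P values were adjusted over all 27384 tested probes with a threshold of 0.05. Where a gene had several tested probes, the brightest on average stands for it. Precision is limited by the number of arrays.

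IGF1 and IGF2 are secreted peptides that act on muscle cells through IGF1R, a tyrosine kinase receptor that signals by way of insulin receptor substrates, PI3K and AKT, and in cultured myoblasts they promote proliferation as well as differentiation. IGF2R carries IGF2 to lysosomes and so removes it. The binding proteins hold the ligands in the medium and the matrix, can keep them from the receptor or release them near it, and are cut by proteases such as PAPPA.

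In HMB-treated cells *IGF1*, *IGF2*, *IGFBP2*, *IGFBP5* and *IGFBP7* mRNA fell and *IGFBP4* mRNA rose. Thus 6 of the 10 genes passed the threshold in limma, 5 lower and 1 higher, whereas 22.5% of all 15545 tested genes passed it, 11.6% lower and 10.9% higher. The median of the 10 mean log2 ratios was -0.28, and -0.14 with normexp background correction, compared with 0.02 over all tested genes. By probe, 16 of 20 passed, 15 lower and 1 higher, against 22.8% of all tested probes, but most of these probes overlap and are not separate measurements. All 20 probes were above background in both channels on the 4 arrays, so that the filter on dim probes removed no member. Because whole cultures were measured, fewer cells of a type and less mRNA per cell cannot be told apart in any of these values.

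The calls of *IGFBP4*, *IGFBP5* and *IGFBP7*, 3 of the 6, did not depend on any single array. Without array 2 these 3 were the only members past the threshold in limma, and without array 3 or array 4 they were joined by *IGF1*, which made 4. The share of all tested genes past the threshold, 22.5% with every array, was then 8.95% without array 2, 9.58% without array 3 and 17.2% without array 4. With no filter on dim probes 1 member passed, *IGFBP7*, beside 8.23% of all genes, and with the channels compared without pairing 2 did, *IGF1* and *IGFBP7*, beside 7.72%. The methods' t-test comes from the study's processing notes and not from its methods section. It gave 0 of the 10 genes after adjustment, against 6 in limma, and 2.63% of all genes passed in it. At an unadjusted P under 0.05 this t-test gave 4 of the 10 genes, beside 8435 of 27384 tested probes. After adjustment, fewer calls were thus made over all genes as well in each of these settings. With no lowess normalisation 59.2% of all changed probes had a higher ratio than 0, whereas with it the share was 49.1%. With no lowess 6 members passed as before, 5 lower and 1 higher, beside 27.2% of all tested genes.

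**Figure D1:**
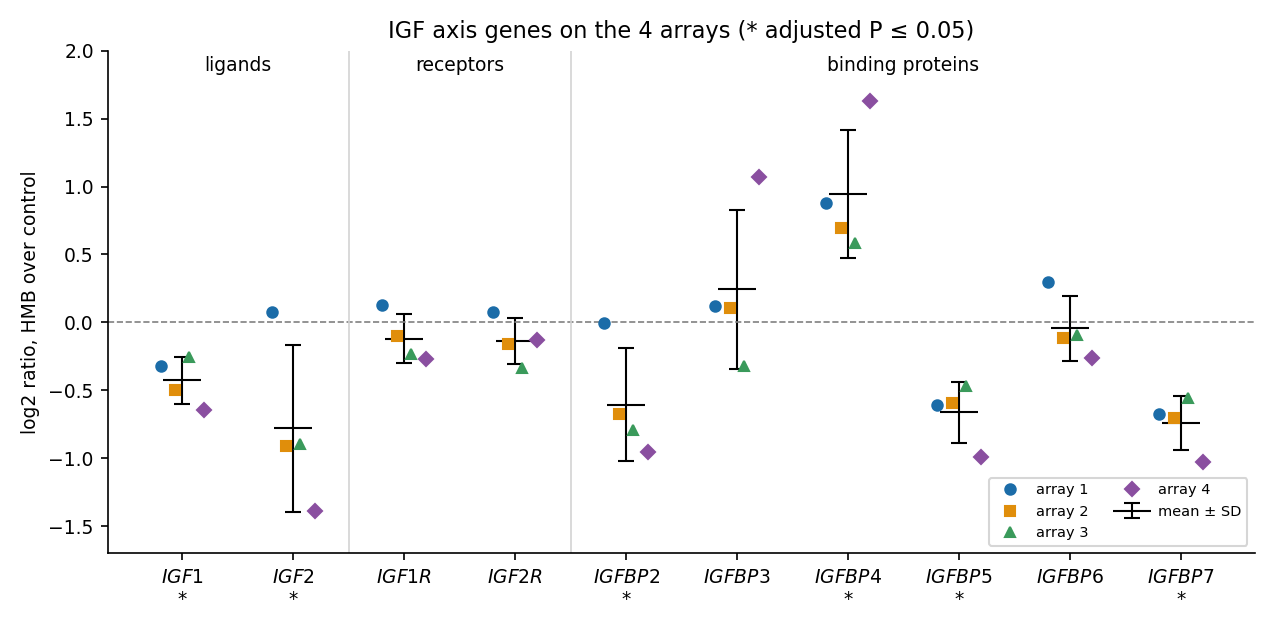
Log2 ratio of HMB-treated over control cells (y axis) for the 10 genes, ordered by role (x axis). Points are the 4 arrays, black lines the mean ± SD, and asterisks mark an adjusted P of at most 0.05 in limma; *IGFBP4* lies above 0 on every array, and *IGF2* is lower on 3 arrays and at 0.08 on array 1.

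The probe of *IGF1*, the ligand that growth hormone induces in many tissues, gave log2 ratios of -0.32, -0.50, -0.25 and -0.64 on arrays 1 to 4. All 4 arrays were below 0, array 4 the furthest and array 3 the least. The mean was -0.43 ± 0.18, a 1.35-fold lower signal (95% CI 1.17 to 1.54), with an adjusted P = 0.0167 in limma. The probe (NM_001082498) reaches from 26114321 to 26118887 on chromosome 28 of EquCab1, a stretch of 4567 bases for a probe of 60, so it spans an intron. Its signal was faint. It lay between 1.22 and 1.37 log2 units above the lowest signal called above background in control cells, and between 0.61 and 1.12 above it in HMB-treated cells. The call was lost without array 2 (adjusted P = 0.0752) and with normexp background correction, where the mean was -0.16 (adjusted P = 0.125 in limma).

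*IGF2*, the ligand that myoblasts make for themselves as they differentiate, had 2 coding probes (NM_001114539) on a sequence of EquCab1 that is not placed on a chromosome. The brighter lies from 277275501 to 277275560 and the other from 277275581 to 277275640, with 20 bases between them. Their sequences are shown because they do not overlap and so read the same transcript through different bases.
IGF2 brighter probe: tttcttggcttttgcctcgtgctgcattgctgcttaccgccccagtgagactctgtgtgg
IGF2 other probe: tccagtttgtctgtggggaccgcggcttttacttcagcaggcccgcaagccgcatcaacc

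On arrays 1 to 4 the brighter *IGF2* probe gave 0.08, -0.91, -0.89 and -1.39. The other gave a mean of -0.72 with a highest value, 0.05, on array 1 as well. Thus array 1 showed no fall in either, while the other arrays were all far below 0. The mean of the brighter probe was -0.78 ± 0.62, or 1.72-fold lower (95% CI 1.19 to 2.47), with an adjusted P = 0.0481 in limma, and that of the other probe had an adjusted P = 0.0471. The log2 signal of the brighter probe was 11.24 ± 0.24 in control cells and 10.46 ± 0.46 in HMB-treated cells. Without array 1 the mean was -1.06 (adjusted P = 0.0134), and the call of *IGF2* was lost when array 2 (adjusted P = 0.132), array 3 (0.142) or array 4 (0.119) was left out in limma.

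A further probe, which the files describe as the 3′ end of *IGF2* but do not name by the symbol, is outside the 10 genes as chosen. It lies on the same unplaced sequence from 277277448 to 277277507. Its log2 ratios of -0.61, -0.71, -0.90 and -0.81 were below 0 on all 4 arrays, array 1 included. The mean was -0.76 ± 0.13 (adjusted P = 0.00221 in limma). The difference of this probe from the mean of both coding probes was -0.67, 0.15, -0.04 and 0.53 on arrays 1 to 4, so that the probes disagreed most on array 1 and array 4, in opposite directions. In an exact test on 4 arrays the smallest P is 0.125, and the difference was not tested further.

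Neither receptor passed the threshold. For *IGF1R* (ENSECAT00000023425, chromosome 1, 101337333 to 101337392), the receptor of both ligands, the ratios were 0.12, -0.10, -0.23 and -0.27, with a mean of -0.12 ± 0.18 (95% CI -0.32 to 0.08, adjusted P = 0.332 in limma). For *IGF2R* (ENSECAT00000022438, chromosome 31, 8218205 to 8218264), which also sorts lysosomal enzymes, they were 0.08, -0.16, -0.34 and -0.13, with a mean of -0.14 ± 0.17 (95% CI -0.33 to 0.06, adjusted P = 0.260). Both were slightly above 0 on array 1 and below 0 on the other arrays. The mean of *IGF1R* was -0.20 without array 1 and -0.071 without array 4. That of *IGF2R* was -0.21 without array 1 and -0.071 without array 3. The intervals are those of limma, and values within them cannot be set apart by these 4 arrays.

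Among the binding proteins 4 of 6 passed the threshold, 3 lower and 1 higher, where 11.6% and 10.9% of all tested genes did. The rise was that of *IGFBP4*, which in most settings withholds IGF from its receptor until PAPPA cuts it. Its single probe (ENSECAT00000011713) lies on chromosome 11 from 20885389 to 20885448, on the minus strand. The sequence is shown because this probe alone carries the rise.
IGFBP4 probe: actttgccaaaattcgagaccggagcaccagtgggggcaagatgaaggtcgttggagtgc

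*IGFBP4* gave log2 ratios of 0.88, 0.69, 0.59 and 1.63 on arrays 1 to 4. Every array was above 0, and array 4 stood well above the rest. The mean was 0.95 ± 0.47, which is 1.93-fold higher (95% CI 1.45 to 2.57), with an adjusted P = 0.0142 in limma. The log2 signal was 7.04 ± 0.26 in control cells and 7.98 ± 0.69 in HMB-treated cells. Of the 15545 tested genes 92 had a higher mean ratio. Without array 4 the mean was 0.72, and the adjusted P lay between 0.00866 and 0.0475 when 1 array was left out.

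The 3 tested genes with ratios nearest to those of *IGFBP4*, by Euclidean distance over the 4 arrays among 15536 genes with all values, were *PHF19*, *CDKN3* and *KCNE4*. *PHF19*, a reader of methylated histone H3 that recruits Polycomb, was at a distance of 0.349 and had a mean of 0.97 ± 0.30. *CDKN3*, a phosphatase of cyclin-dependent kinases, was at 0.364 with a mean of 0.99 ± 0.31. *KCNE4*, a subunit of potassium channels, was at 0.385 with a mean of 1.09 ± 0.47. The control signal of *PHF19* was above background on 2 of 4 arrays and that of *KCNE4* on 1, while *CDKN3* was above background throughout. With normexp background correction the mean of *PHF19* was 0.28 and not past the threshold (adjusted P = 0.0751 in limma), and that of *KCNE4* was 0.36.

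*IGFBP2*, a binding protein with an integrin-binding motif, had a single probe (ENSECAT00000012491, chromosome 6, 6601694 to 6603960) that spans an intron. Its log2 ratios on arrays 1 to 4 were -0.01, -0.68, -0.80 and -0.95. As with the coding probes of *IGF2*, array 1 was close to 0 and the other arrays were clearly lower. The mean was -0.61 ± 0.42, or 1.52-fold lower (95% CI 1.18 to 1.97), with an adjusted P = 0.0356 in limma. It was -0.81 without array 1 (adjusted P = 0.0103), and the call of *IGFBP2* was lost when array 2 (adjusted P = 0.107), array 3 (0.123) or array 4 (0.0951) was left out in limma.

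*IGFBP5*, the binding protein that rises in many muscle cell lines on differentiation, had 6 probes (ENSECAT00000014055) on the minus strand of chromosome 6. Of these, 5 share 56 bases of a stretch of 64 from 6614690 to 6614753, and the sixth, from 6617081 to 6630556, covers a junction of exons. The sixth is shown because its fall was larger than that of the other probes.
IGFBP5 probe across exons: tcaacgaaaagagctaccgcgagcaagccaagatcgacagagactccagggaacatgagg

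The brightest *IGFBP5* probe gave -0.61, -0.59, -0.47 and -0.99 on arrays 1 to 4, and the probe across exons -1.08, -1.06, -0.68 and -1.23. Both were below 0 on every array, lowest on array 4 and nearest to 0 on array 3. The brightest probe had a mean of -0.66 ± 0.23, or 1.58-fold lower (95% CI 1.35 to 1.86), with an adjusted P = 0.00720 in limma, and the means of the 5 overlapping probes lay between -0.72 and -0.61. The probe across exons had a mean of -1.02 ± 0.23, which is 2.02-fold lower (95% CI 1.72 to 2.38), with an adjusted P = 0.00236. It was below the mean of the overlapping probes on all 4 arrays, by -0.44, -0.46, -0.21 and -0.27, a mean difference of -0.35 ± 0.12. With 4 arrays a two-sided exact test of this difference cannot give a P under 0.125, and the difference was not tested in limma.

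*IGFBP2* and *IGFBP5* are neighbours on chromosome 6, with 10729 bases between the nearest probes, and the files place them on opposite strands. Both fell, though they differed on array 1, where *IGFBP2* was near 0 and *IGFBP5* was not. *IGFBP6* is on the same chromosome, far from this pair.

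*IGFBP7*, a secreted protein of vessels and stroma that binds IGF weakly, had 5 probes (ENSECAT00000013593) that share 56 of 64 bases on chromosome 3, from 69283927 to 69283990. The first of them by position (69283927 to 69283986) and the last (69283931 to 69283990) are shown, with the bases shared by all 5 probes in capitals, to make plain that the 5 values repeat 1 measurement.
IGFBP7 first probe: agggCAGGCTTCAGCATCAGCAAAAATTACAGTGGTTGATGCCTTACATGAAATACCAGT
IGFBP7 last probe: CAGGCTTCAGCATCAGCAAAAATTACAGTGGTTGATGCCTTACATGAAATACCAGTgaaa

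The brightest *IGFBP7* probe gave log2 ratios of -0.67, -0.70, -0.56 and -1.03 on arrays 1 to 4. Arrays 1 to 3 lay close together, and array 4 was lower. The mean was -0.74 ± 0.20, or 1.67-fold lower (95% CI 1.44 to 1.94), with an adjusted P = 0.00435 in limma, and the means of the 5 probes lay between -0.77 and -0.74. The log2 signal was 9.52 ± 0.14 in control cells and 8.78 ± 0.21 in HMB-treated cells. When 1 array was left out the adjusted P was at most 0.0201.

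*IGFBP3*, which carries most IGF in blood, and *IGFBP6*, which prefers IGF2, were not past the threshold. For *IGFBP3* (ENSECAT00000019151, chromosome 4, 16310586 to 16311740) the ratios of 0.12, 0.10, -0.32 and 1.07 went both ways. The mean was 0.24 ± 0.59 (95% CI -0.26 to 0.75, adjusted P = 0.433 in limma), and it turned to -0.034 without array 4. For *IGFBP6* (ENSECAT00000020855, chromosome 6, 70198242 to 70198301) the ratios were 0.30, -0.12, -0.09 and -0.26, with a mean of -0.04 ± 0.24 (95% CI -0.28 to 0.20, adjusted P = 0.776), which turned to 0.084 with no lowess normalisation and to 0.029 without array 4.

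**Figure D2:**
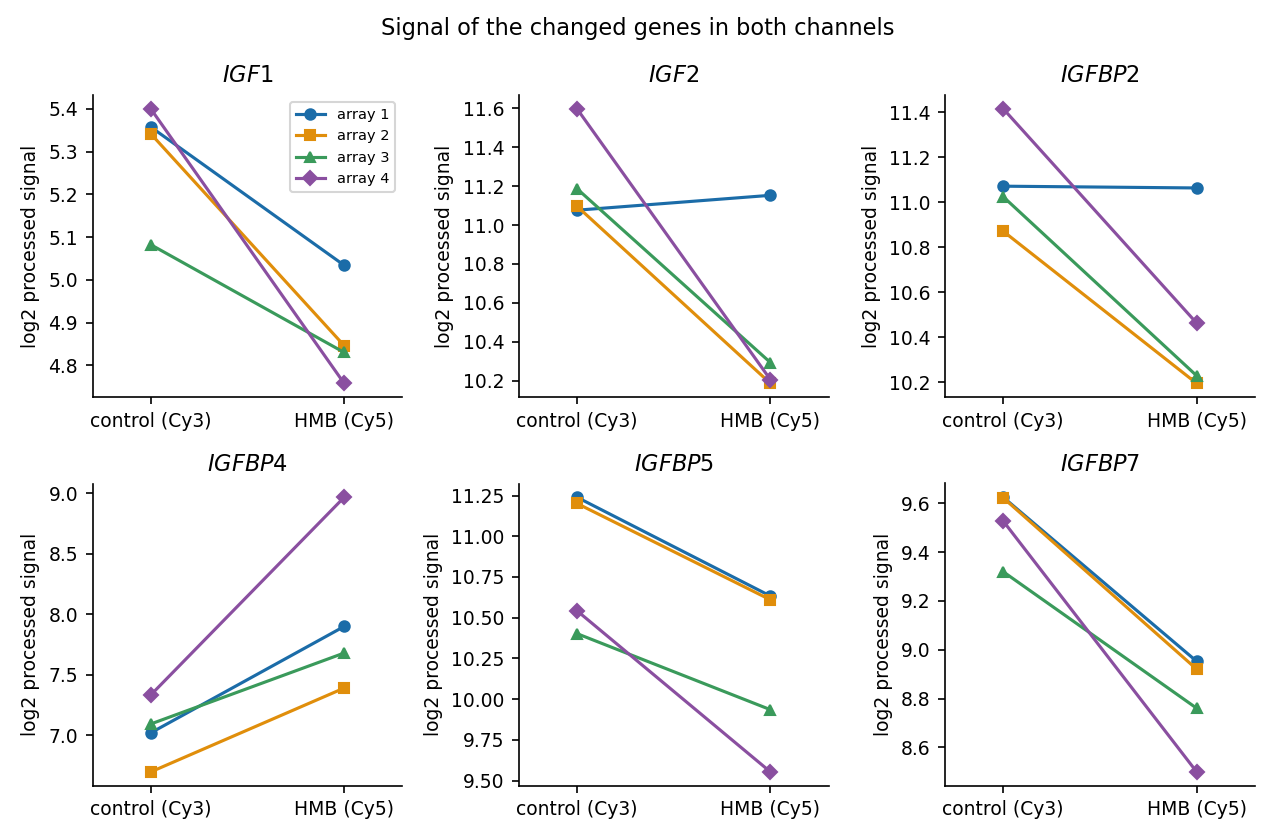
Log2 processed signal (y axis, with its own range in each panel) of control cells in Cy3 and HMB-treated cells in Cy5 (x axis) for the 6 genes past the threshold; each line is 1 array. The lines of *IGFBP4* all rise and those of *IGF1*, *IGFBP5* and *IGFBP7* all fall, while array 1 is nearly level for *IGF2* and *IGFBP2*.

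**Figure D3:**
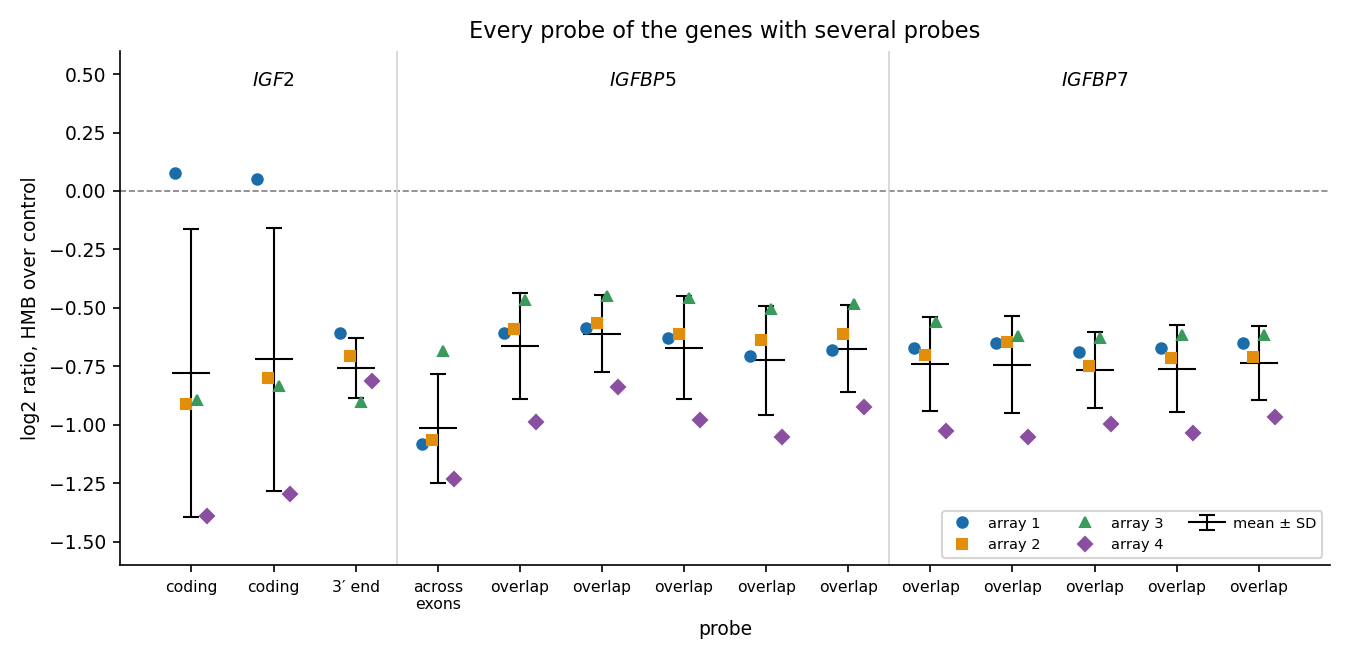
Log2 ratio of HMB-treated over control cells (y axis) for each probe of *IGF2*, *IGFBP5* and *IGFBP7* (x axis), with the 4 arrays as points and the mean ± SD as black lines. The probe across exons of *IGFBP5* has a mean of -1.02, below the 5 overlapping probes, and the 3′ end probe of *IGF2* is below 0 on array 1, where both coding probes are just above it.

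Over the 4 arrays, 8 of the 10 genes had their ratio of largest size on array 4. The same sign on all arrays was seen for 5, among them *IGFBP2*, which was at -0.0079 on array 1. The medians of the 10 genes on arrays 1 to 4 were 0.08, -0.33, -0.33 and -0.45, and the medians of all tested genes were 0.01, 0.01, 0.03 and 0.01. On array 1, 6 of the genes were above 0. The median was thus above 0 on array 1 alone, where *IGF1*, *IGFBP2*, *IGFBP5* and *IGFBP7* were still below 0. The counts of genes by array were not made over all tested genes, so they cannot be read as a trait of the 10 genes.

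Beside the 10 genes, 62 others of the axis were listed by function, of which 57 had a probe and 47 were tested. Of the 47, 15 passed the threshold in limma, 11 lower and 4 higher, where 22.5% of all tested genes passed, and the median log2 ratio of the 47 was -0.09. The count was 9 without array 1, 4 without array 2, 2 without array 3 and 11 without array 4, while the share of all tested genes fell to 17.2%, 8.95%, 9.58% and 17.2%, and 2 of the 15, *NOV* and *WISP1*, were called in each of these cases. It was 4 with no filter on dim probes, 2 with the channels compared without pairing and 0 in the methods' t-test of the processing notes. In these settings 8.23%, 7.72% and 2.63% of all genes passed. At an unadjusted P under 0.05 the methods' t-test gave 19 of the 47, beside 8435 of 27384 tested probes.

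Of 9 proteases of binding proteins and their inhibitors, 7 were tested and 2 passed, both lower, beside 22.5% of all tested genes, with a median of 0.02 over the 7 that changed sign in some settings, as with normexp (-0.019). *C1S*, a complement protease that cuts IGFBP5, gave -0.25, -0.61, -0.94 and -1.30 on arrays 1 to 4. All arrays were below 0, array 1 the least. Its mean was -0.78 ± 0.45 (adjusted P = 0.0216 in limma), a call lost with array 2 (adjusted P = 0.0527) or array 3 (0.0792) left out. *STC2*, an inhibitor of PAPPA, had a mean of -0.43 ± 0.23 (adjusted P = 0.0263) and lost its call with array 2 (0.0912) or array 3 (0.0795) left out in limma. *PAPPA*, the protease that cuts IGFBP4, had a mean of 0.04 ± 0.05 (adjusted P = 0.680). *PAPPA2* and *ADAM28* were not well above background.

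The list of IGF mRNA-binding proteins and the imprinted neighbour of *IGF2* held 4 genes, all tested, of which 2 were lower and 0 higher in limma, beside 11.6% and 10.9% of all tested genes, with a median of -0.29, which was -0.48 with no lowess, -0.11 with normexp, -0.039 with no filter on dim probes and -0.11 without array 4. With an unadjusted P no gene of this list was higher either. *H19*, a long non-coding RNA beside *IGF2*, gave -0.22, -0.86, -1.03 and -1.27 on arrays 1 to 4. Again array 1 was nearest to 0. Its mean was -0.85 ± 0.45 (adjusted P = 0.0171 in limma), a call lost with array 2 (adjusted P = 0.0543) or array 3 (0.0644) left out. The other gene, *IGF2BP3*, which binds *IGF2* mRNA, had a mean of -0.44 ± 0.19 (adjusted P = 0.0179), but another of its probes represents it without array 4 and with no filter on dim probes, and the mean then turned to 0.090 and 0.14. The mean was -0.19 with normexp and -0.67 with no lowess, and leaving out array 3 ended the call (adjusted P = 0.0760 in limma).

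Of the 7 listed proteins that share the IGF-binding domain but are no classical binding proteins, all were tested and 3 were lower, beside 11.6% of all tested genes, with a median of -0.33, which was -0.20 with no lowess and -0.19 without array 4. *NOV* (CCN3), a matricellular protein, gave -0.97, -0.73, -0.70 and -1.75, all below 0 with array 4 the furthest. Its mean was -1.04 ± 0.49 (adjusted P = 0.0120 in limma). *WISP1* (CCN4) had a mean of -0.70 ± 0.26 (adjusted P = 0.00823 in limma), which was -0.35 with normexp. *CTGF* (CCN2) had one of -0.38 ± 0.11 (adjusted P = 0.0136 in limma), a call that ended when array 3 was left out (adjusted P = 0.0661).

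Downstream of the receptor, 20 of 25 listed adaptors and members of the PI3K and AKT pathway were tested, and 4 were lower and 3 higher, beside 11.6% and 10.9% of all tested genes, with a median of -0.10. All 7 changes were small. The lower ones were *SOS2* (-0.28 ± 0.12), an exchange factor for RAS, *PIK3CB* (-0.24 ± 0.11), a catalytic subunit of PI3K, and the adaptors *SH2B2* (-0.24 ± 0.09) and *GRB2* (-0.21 ± 0.05). The higher ones were *PIK3CD* (0.33 ± 0.13) and *PIK3R1* (0.31 ± 0.09), a catalytic and a regulatory subunit of PI3K, and *PTPN11* (0.25 ± 0.08), a phosphatase that relays receptor signals. Their adjusted P values in limma lay between 0.0198 and 0.0494, but all 7 calls were lost with array 1 (0.0509 to 0.100), array 2 (0.0620 to 0.211) or array 3 (0.0918 to 0.189) left out. With array 4 left out, those of *GRB2*, *PTPN11* and *SH2B2* were lost (0.0643 to 0.0847 in limma). *PTPN11* also missed the threshold with normexp (0.17, adjusted P = 0.0653) and with no lowess (0.22, adjusted P = 0.0639), as did *GRB2* (-0.061, adjusted P = 0.573), *PIK3CB* (-0.18, adjusted P = 0.133) and *SH2B2* (-0.22, adjusted P = 0.0639) with no lowess in limma. With the mean of a gene's probes *GRB2* (adjusted P = 0.0571) and *PIK3CB* (adjusted P = 0.0509) also missed it in limma, while *SH2B2* was at -0.39. *PIK3CD* was at 0.17 with normexp. *IRS1*, *IRS4* and *GAB1* were not well above background on enough arrays, and no probe was found for *PIK3R2* and *PIK3R3*. *AKT1* and *AKT2* had means of 0.03 and -0.15 and were not past the threshold. The ratios of *AKT1* were 0.54, -0.11, -0.15 and -0.14 on arrays 1 to 4, above 0 on array 1 alone.

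Of 17 other ligands, receptors and carriers, 9 were tested and 1 passed, beside 22.5% of all tested genes, with a median of -0.01 that was above 0 in some settings (0.025 as the mean of a gene's probes). This was *STAT5A*, a transcription factor of growth hormone signalling, with a mean of 0.28 ± 0.08 (adjusted P = 0.0259 in limma), a call lost with array 1 (adjusted P = 0.0562), array 2 (0.105) or array 3 (0.0956) left out, and with normexp (0.14, adjusted P = 0.0870) or no lowess (0.21, adjusted P = 0.0840). *GHR*, the growth hormone receptor, had a mean of 0.17 ± 0.27 (adjusted P = 0.294), and *INSR*, the insulin receptor, one of 0.16 ± 0.21 over the 3 arrays with a value (adjusted P = 0.312). The 5 probes of *IGFBP1* and those of *INS*, *INSRR*, *STAT5B* and *SOCS3* were not well above background on enough arrays. No probe was found for *IGFALS*, *SOCS1* and *SOCS2*.

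**Figure D4:**
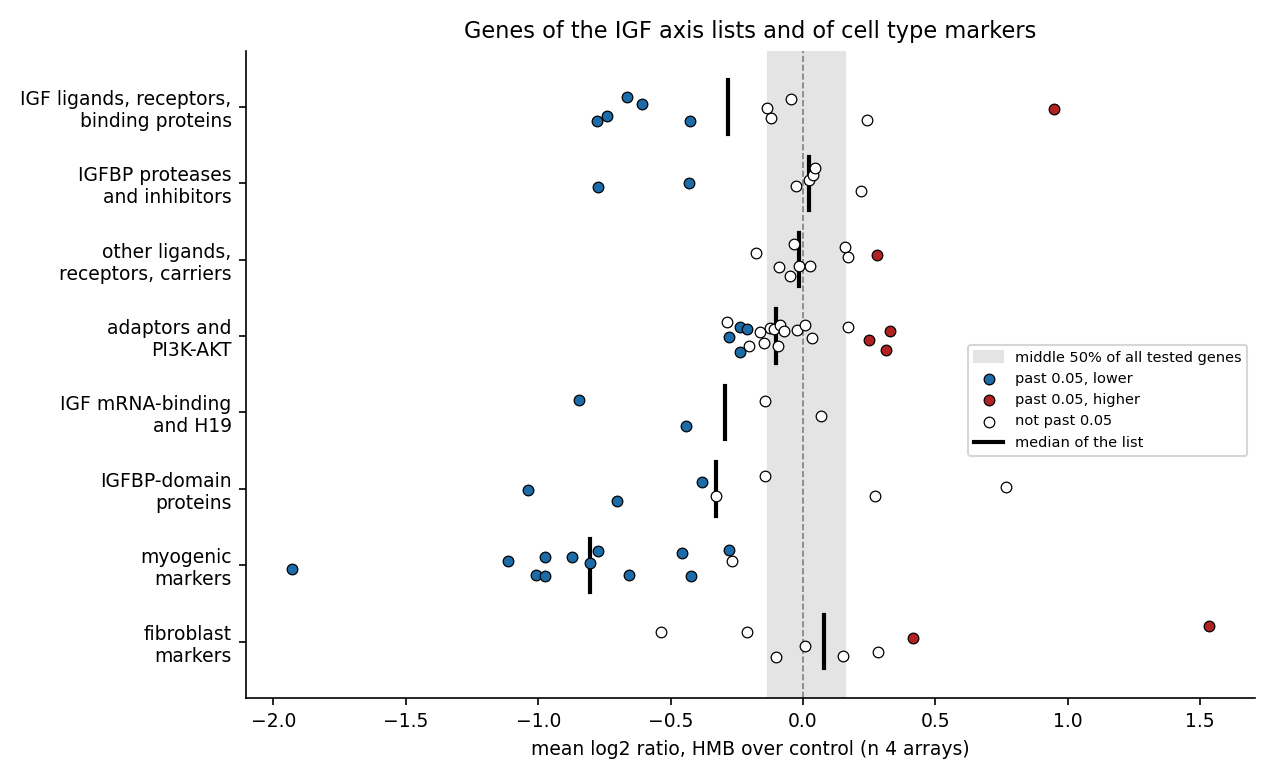
Mean log2 ratio of HMB-treated over control cells (x axis, *n* 4) for each tested gene of the lists (y axis), with black bars for the medians, blue and red points for genes past the threshold in limma and a grey band for the middle 50% of all tested genes. The myogenic markers lie furthest to the left, with a median of -0.80, and *IGFBP4* is the single red point among the 10 genes.

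Markers of cell types were read beside these values. Of 14 myogenic markers 13 were tested and 12 were lower in limma, where 11.6% of all tested genes were lower, with a median of -0.80 and medians of -0.36, -0.78, -0.95 and -1.15 on arrays 1 to 4. With no lowess the median was -0.48. The median was thus nearest to 0 on array 1, as were, among others, *IGF2*, *IGF2R*, *IGFBP2*, *H19*, *C1S*, *STC2* and *WISP1*. The rest of the 10 genes were nearest to 0 on another array. Not every marker was nearest to 0 on array 1, since *MYF6* was furthest from 0 there (-0.44). The falls ranged from *MYH8*, perinatal myosin heavy chain, at -1.93 ± 0.36, to *MYF6*, a myogenic transcription factor, at -0.28 ± 0.16. *MYF6* was not called with any array left out (adjusted P = 0.0662 to 0.161 in limma). The others were *MYH3*, *MYF5*, *DES*, *ACTA1*, *TNNT3*, *CKM*, *CDH15*, *MYL1*, *MYOD1* and *MYOG*. *MYMK* had a mean of -0.27 (adjusted P = 0.114), and *PAX7*, the marker of quiescent satellite cells, was not well above background. With arrays 1 to 4 left out in turn, 12, 7, 6 and 7 of the markers passed, beside 17.2%, 8.95%, 9.58% and 17.2% of all tested genes. With no filter on dim probes 2 passed, beside 8.23% of all genes, and with the channels compared without pairing 8 did, beside 7.72%. In the methods' t-test of the processing notes 0 passed after adjustment, against 12 in limma, and 2.63% of all genes passed. The paper itself listed *MYF5* among its lower genes, with RT-qPCR changes that overlapped those of its arrays. The brightest *MYF5* probe had an adjusted P = 0.0507 in the methods' t-test as run here, which thus differs from the paper's call. At an unadjusted P under 0.05 this t-test gave 11 of the markers, beside 8435 of 27384 tested probes. *MYH3* was at -1.11 ± 0.47, and at -0.37 with no lowess (adjusted P = 0.0522 in limma). With no lowess *ACTA1* was at -0.38 in place of -0.98, *DES* at -0.62 in place of -0.98 and *MYL1* at -0.43 in place of -0.66, all still lower.

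All 8 fibroblast markers were tested, of which 2 were higher in limma, where 10.9% of all tested genes were higher, *PDGFRA* at 1.53 ± 0.47 (adjusted P = 0.00358), which was 0.89 with normexp, and *FAP* at 0.42 ± 0.18 (adjusted P = 0.0185). Leaving out array 1 (adjusted P = 0.0532), array 2 (0.0806) or array 3 (0.0752) ended the call of *FAP* in limma. The other 6 were not past the threshold, with means of -0.54 ± 0.64 for *COL1A1*, -0.21 ± 0.43 for *COL3A1*, -0.10 ± 0.19 for *THY1*, 0.0071 ± 0.064 for *LUM*, 0.15 ± 0.22 for *DCN* and 0.28 ± 0.25 for *TCF7L2*. Thus the list went both ways, and the median of the list was 0.08, with 0.39, 0.12, 0.06 and -0.07 on arrays 1 to 4. The median was 0.43 with no lowess, 0.16 with normexp and 0.12 with the mean of a gene's probes. Without array 1 it was 0.036, and without array 4 it was 0.13. The fibroblast list had its highest median on array 1, where the myogenic list was nearest to 0.

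Of 6 leukocyte markers 3 were tested, and 1 was higher, beside 10.9% of all tested genes. This was *PTPRC* at 0.28 ± 0.13 (adjusted P = 0.0374 in limma), a call that was lost whichever array was left out, with adjusted P values between 0.0574 and 0.115. Of its 15 probes 8 were tested, 6 with a mean above 0 and 2 below, between -0.48 and 0.37, and the mean of its probes was 0.13 (adjusted P = 0.212 in limma). With no lowess *PTPRC* was at 0.51 (adjusted P = 0.00364 in limma). *CD68* and *CD14* were not past the threshold, and *CD3E*, *CSF1R* and *LYZ* were not well above background. Of 4 markers of pericytes and smooth muscle 3 were tested and 1 was lower, beside 11.6% of all tested genes, namely *MYH11* at -1.18 ± 0.86 (adjusted P = 0.0368), with signal above background on 3 arrays in HMB-treated cells. Leaving out array 1 (adjusted P = 0.0809), array 2 (0.0706) or array 3 (0.0541) ended the call of *MYH11* in limma, and its mean was -0.76 without array 4 and -0.45 with normexp. *ACTA2* and *CSPG4* were not past it, and *RGS5* was not well above background. None of the 5 endothelial and none of the 4 adipocyte markers was bright enough on all arrays to be tested. The part of cell type in the values of the 10 genes was not tested.

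**Figure D5:**
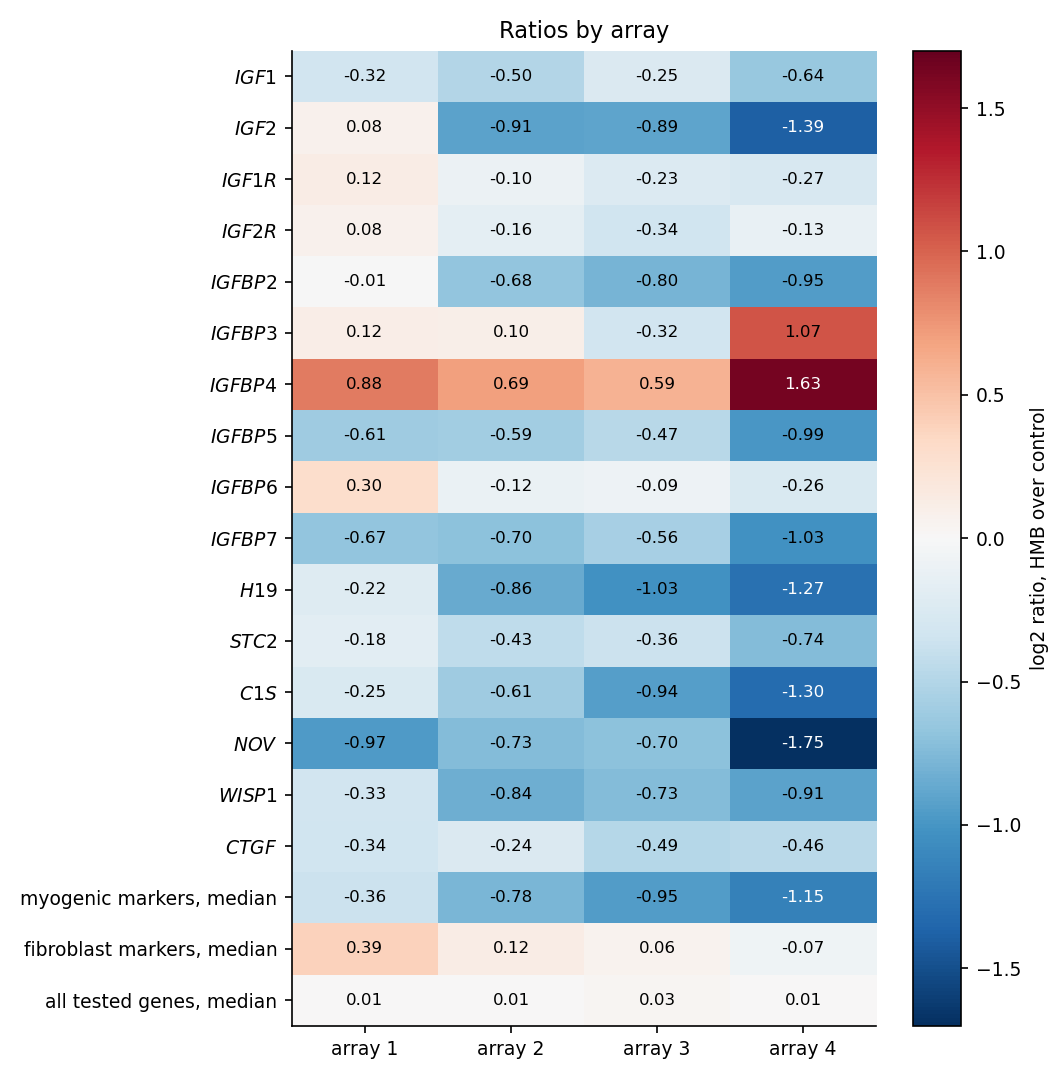
Log2 ratio of HMB-treated over control cells on arrays 1 to 4 (columns, with colour and printed value) for the 10 genes, 6 further genes of the axis and the medians of the myogenic markers, the fibroblast markers and all tested genes (lines of the grid). *IGF2*, *IGFBP2*, *H19* and the median of the myogenic markers are nearest to 0 on array 1, at 0.08, -0.01, -0.22 and -0.36. So are *IGF2R*, *C1S*, *STC2* and *WISP1*, while the other genes of the grid are nearest to 0 on another array.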

How the data were processed

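RNA of HMB-treated and control ESC (RNA integrity number of at least 9.2) was measured on 4 horse arrays of 45220 spots. The authors made the spot intensities with Feature Extraction, version 10.10.1.1 per the file headers and another version in the methods section. Background subtraction and normalisation (linear and lowess) by the authors gave the deposited ratios, Cy5 over Cy3, in log10. Deposited marks of 0 or 1 tell whether a spot was above background and whether it was saturated, an outlier or non-uniform. The deposited summary table holds the same log10 values (largest difference 0, median 0 on every array).

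Ratios were multiplied by 3.32 to log2. Control spots and spots marked non-uniform or outlying were left out, and repeated spots were averaged per probe. Testing required 1 channel above background on each of the 4 arrays and a value on 3 or more of them. In a first run marked spots had counted as not above background, which tested 27369 probes. The filter was changed after results had been seen, when that count was seen to differ from an earlier count on the same files, and the first form was kept as an alternative. limma 3.58.1 (R 4.3.3, the data.table package in version 1.17.8) was fitted to all tested probes with an intercept and an empirical Bayes variance, and checked on simulated data. Python 3.11.15, numpy 2.4.6, pandas 2.3.3 and matplotlib 3.10.9 made summaries and figures.

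The members and lists were chosen with earlier results of these data known. Named are the 10 genes, the genes of each list past the threshold (at most the 4 largest rises and 4 largest falls), the markers past it, and the 3 genes nearest to the member with the largest mean. Other genes are named to account for the lists. *STC2*, *WISP1* and some markers were named from descriptions or accessions in the files. Exon annotation of EquCab1 was not used here. The alternatives were normexp (offset 50) with loess, no lowess, the methods' t-test with and without a minimum of 1.3-fold (both from the study's processing notes, as its methods section names neither), separate channels with and without the array as replicate block, no filter, a filter on both channels, keeping marked spots, the summary table, the mean of a gene's probes and each array left out (2 or more values).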

Additional observations from a re-analysis of the deposited data

Results flagged for a closer look

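Of 68 sets of 4 array values, 5 held 1 array so far from the nearest other array, for the range of the set, that the gap passed Dixon's 95% critical value for 4 values. Chance gives this in about 1 in 20 sets. For 1 of the 5 overlapping *IGFBP7* probes, array 4 gave a log2 ratio of -1.05 and stood below the other arrays, as it did for the neighbouring probes. For *PTPRC*, array 1 gave 0.47 and stood above the rest. The median of the proteases and inhibitors of binding proteins was -0.21 on array 4, and that of the markers of pericytes and smooth muscle was -1.34 on array 4, both lower than on the other arrays. The median of all axis lists was -0.057 on array 2, higher than on the other arrays. Their causes were not tested.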

How the results depend on the processing

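In the main setting 6257 probes, 6 of the 10 genes and 15 axis genes passed the threshold of limma. In the methods' t-test, taken from the study's processing notes, 768 probes, 0 of the 10 genes and 0 axis genes passed (8435 probes, 4 of the 10 genes and 19 axis genes at an unadjusted P under 0.05), and with the minimum fold 451, 0 and 0. With separate channels and no replicate block the counts were 2226, 2 and 2, and with the array as replicate block they were 6257, 6 and 15. With no filter on dim probes they were 3690, 1 and 4. With 1 array left out, probes lay between 2573 and 4957, the 10 genes between 3 and 6 and axis genes between 2 and 11. With normexp, no lowess, both channels above background, marked spots kept, marked spots counted as not above background (an alternative chosen after seeing the data) and the summary table, the counts stayed within 1.5 times, as did the gene counts with the mean of a gene's probes, which gives no count of probes. *IGFBP6* turned to 0.084 with no lowess and *IGF2BP3* to 0.14 with no filter. With 1 array left out, *IGFBP6* lay between -0.16 and 0.029, *IGFBP3* between -0.034 and 0.43 and *IGF2BP3* between -0.52 and 0.090, each changing sign without array 4. For *IGF2BP3*, another of its probes stood for the gene both with no filter and without array 4. The summary table and the fit with the array as replicate block repeat the values of the paired fit and could change no call. Of 613 gene values under the other 14 alternatives, 392 kept direction and side of the threshold, 216 kept direction but fell short of it, 0 newly passed it and 5 changed sign. Of the genes counted, only *IGF1R*, *IGF2R*, *IGFBP3* and *IGFBP6* were not already past the threshold in the main setting. No other gene could newly pass it. Causes were not tested. The faint signal of *IGF1* over background limits its ratio.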
